A study of Homo sapiens with 10 samples.

Results

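The miR-30 family was followed through 5 purifications of RNA held by a probe against a chosen messenger RNA. Its members were the 5 guide-strand assays hsa-miR-30a, hsa-miR-30b, hsa-miR-30c, hsa-miR-30d and hsa-miR-30e, taken by name from the 745 miRNA assays measured; all 5 were on the first of 2 PCR panels. The cell lines were HepG2 (human, from a liver tumour) and PC-3 (human, from a prostate cancer). Cells were transfected for 24 hours with 1 probe: a control probe, a probe against the p21 mRNA (a cyclin-dependent kinase inhibitor) or, in HepG2 only, a probe against the STAT3 mRNA (a cytokine-activated transcription factor). Bound RNA was then taken up on streptavidin beads. Each of the 5 combinations was purified 1 time, and each miR-30 assay had 1 well per purification, so no test between conditions could be made and no p-value is given. Shifts against the control probe with p21 and with STAT3 share the same HepG2 control purification.

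MicroRNAs guide Argonaute proteins to messenger RNAs, mainly by pairing through the seed, bases 2 to 8 of the mature strand. The miR-30 family is abundant in epithelia, including liver and kidney, where its members are known to restrain the epithelial-to-mesenchymal transition and to repress autophagy genes. Members with a shared seed can pair with the same target sites, so the family allows a comparison of like guides within each purification.

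The mature strands are shown because these members differ only outside the seed. RefSeq (GRCh38.p14) gave sequences for miR-30a, miR-30c and miR-30e among the 5 members; they are written 5′ to 3′ with the seed in capitals.
hsa-miR-30a: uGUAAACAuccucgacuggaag
hsa-miR-30c: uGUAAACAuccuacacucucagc
hsa-miR-30e: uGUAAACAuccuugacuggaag
The first 12 bases of the 3 strands were the same. Counted from the 5′ end, miR-30a and miR-30e differed by the single substitution C13U (miR-30a base first), whereas miR-30a and miR-30c differed at 5 of 22 positions, from C13A to A20C, and miR-30c was 1 base longer. The sources used here do not say how well the assays keep miR-30a and miR-30e apart.

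The miR-30c strand comes from 2 hairpins, which the miR-30c assay cannot tell apart. MIR30C1 lies at chr1:40757284-40757372 (plus strand) and MIR30C2 at chr6:71376960-71377031 (minus strand). The hairpins are shown with both mature arms in capitals, because the 5′ arm is the same in both while the 3′ arms, read by the separate assays miR-30c-1* and miR-30c-2*, differ at 3 of 22 positions (G9A, U12C and C22U, miR-30c-1* base first).
MIR30C1: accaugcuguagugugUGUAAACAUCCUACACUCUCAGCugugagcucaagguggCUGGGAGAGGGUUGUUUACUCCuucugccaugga
MIR30C2: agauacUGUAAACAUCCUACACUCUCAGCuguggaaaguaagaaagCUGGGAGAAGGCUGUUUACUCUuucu
MIR30C1 and MIR30E (chr1:40754355-40754446) are 2837 bases apart within the span of NFYC, which encodes a subunit of the transcription factor NF-Y. MIR30C2 and MIR30A (chr6:71403551-71403621) are 26519 bases apart, and the RefSeq table places neither inside another gene.

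In HepG2, miR-30c gave a Cq of 31.14 (control probe), 28.74 (p21) and 27.69 (STAT3). Cq is the PCR cycle at which the signal crosses the threshold, so a lower value means more template. In PC-3 its control well had no Cq and its p21 well read 35.15. All 3 HepG2 wells were thus ahead of the PC-3 wells. In HepG2 both target probes gave an earlier miR-30c Cq than the control probe, before any centring.

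For miR-30b the HepG2 values were 32.34 (control), 30.92 (p21) and 31.12 (STAT3), and the target probes lay close to each other. In PC-3 miR-30b read 39.17 (control) and had no Cq for p21. For miR-30a they were 36.66, 33.97 and 32.76, so this member crossed the limit of detection, set at a Cq of 35, only with the target probes, as did 108 assays in all with p21 and 156 with STAT3. Its PC-3 wells had no Cq (control) and 37.19 (p21). The remaining members were late in every purification. miR-30d read 37.81, 36.63 and 35.80 in HepG2 and miR-30e 37.95, 38.28 and 36.26, and neither gave a Cq in PC-3.

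**Figure D1:**
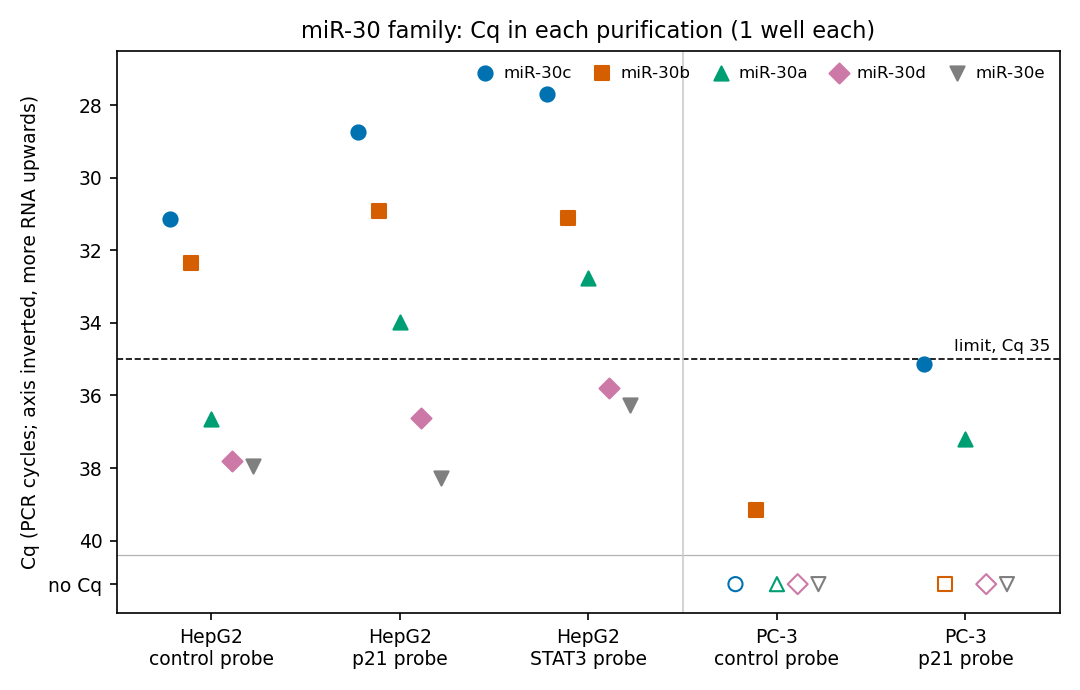
Cq of the 5 miR-30 members (vertical axis, PCR cycles, inverted so that more RNA is higher) in the 5 purifications, 1 well per point, with the detection limit of Cq 35 dashed and wells without a Cq as open symbols in the lowest band. The order from miR-30c down to miR-30e is the same in the 3 HepG2 purifications, and no PC-3 point reaches the limit.

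The order of the Cq values was miR-30c, miR-30b, miR-30a, miR-30d, miR-30e in each of the 3 HepG2 purifications. It is an order of assay readings, since the sources used here do not give the efficiency of each assay. The span from first to last was 6.81 cycles with the control probe, 9.55 with p21 and 8.57 with STAT3. Among neighbours, miR-30d and miR-30e differed by 0.14 cycles with the control probe, by 0.46 with STAT3 and by 1.65 with p21. The SD of a single Cq was 0.63 cycles (22 pairs of wells of reference assays run on both panels, so offsets between panels are included). A difference between 2 wells has a larger SD. The repeated wells behind that SD had Cq values from 26.2 to 33.5, so it does not describe wells as late as those of miR-30d and miR-30e.

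Detected at a Cq of at most 35 were 2 of 5 members with the control probe in HepG2 (16.8% of all 745 assays), 3 of 5 with p21 (28.3%) and 3 of 5 with STAT3 (34.4%). On panel 1 alone, which holds all members, the shares of assays were 28.8%, 34.1% and 37.1%. In PC-3, 0 of 5 members were detected with the control probe (2.15% of all assays, 2.13% on panel 1) and 0 of 5 with p21 (7.11%, 10.1% on panel 1). Counting any Cq, all 5 members gave one in each HepG2 purification (39.3%, 55.8% and 75.3% of all assays with control, p21 and STAT3), against 1 of 5 in the PC-3 control (119 of 745 assays, 16%) and 2 of 5 with p21 in PC-3 (27.8%). The panel 1 shares with any Cq were 52.3%, 62.4% and 80.0% in HepG2, and 15.5% (control) and 34.4% (p21) in PC-3. The reference wells of panel 1 were nearer between the lines. With control and p21, U6 read 30.63 and 28.62 in PC-3, beside 30.63 and 28.78 in HepG2. SNORD38B read 30.41 and 28.46, beside 30.70 and 27.88. SNORD49A read 29.85 and 27.41, beside 28.96 and 26.33. What these wells mean for the miRNA counts was not tested. In these purifications fewer cells and less RNA per cell cannot be told apart, and recovery of the probed mRNAs themselves was not analysed here.

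The reference wells moved with the probes as well. On panel 1, U6, SNORD38B and SNORD49A, which are small nuclear and nucleolar RNAs, came a mean of 2.44 cycles earlier with p21 than with control in HepG2, and 1.75 earlier with STAT3. The UniSp3 calibrator, a synthetic template in 3 wells per plate, moved by -2.28 and -1.30 cycles (later), and the spike-in UniSp6 by 0.24 (earlier) and -0.49 (later). The part of these offsets in the shifts below was not tested. miR-122, a marker of hepatocytes, gave no Cq in any purification, and miR-192, also liver-enriched, only with STAT3 in HepG2 (33.76).

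With the STAT3 probe miR-30c stood well above the bulk of the miRNAs, and miR-30b did not. Shifts are Cq with the control probe minus Cq with the target probe, in log2 units, for assays detected with both, less the median of all such assays on the panel (0.49 cycles for the 87 assays of panel 1 with STAT3). miR-30c was 3.45 cycles earlier, 2.95 log2 units (7.75-fold) above the panel median and the 6th highest of 100 assays. miR-30b was 1.22 cycles earlier, 0.73 above the median (1.66-fold), at rank 34. So 1 of the 2 members measured with both probes was at least 2-fold higher, beside 29.0% of the 100 assays. For miR-30a, undetected with the control probe, the lower bound with the control at Cq 35 was 3.37-fold after centring on the panel median. Before centring that bound was 2.24 cycles. It would be smaller on U6 and the SNORDs (offset 1.75 cycles) or all reference assays (2.11), and larger on UniSp6 (-0.49) or UniSp3 (-1.30). The SD of a centred difference was 0.77 (11 pairs of repeated wells): the miR-30c shift exceeded it and the miR-30b shift lay just under it. The widest pairs behind that SD were those of miR-103. Its shifts on panels 1 and 2 were 4.29 and 2.26 with p21, and 1.83 and -0.33 with STAT3. The PC-3 pairs were centred on medians of only 6 and 4 assays. The SD without these wells was not computed, so the side on which miR-30b falls is uncertain. miR-30c kept its direction under every centre tried, from 1.34 on all reference assays to 4.74 on UniSp3, and fell to 1.54 with a limit of Cq 32, whereas miR-30b turned to -0.53 on U6 and the SNORDs and to -0.89 on all reference assays.

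With the p21 probe both miR-30c and miR-30b were earlier than with the control probe, and the median of the panel moved in the same direction. miR-30c was 2.40 cycles earlier, 1.10 above that median of 1.30 cycles (2.14-fold), at rank 36 of 103. miR-30b was 1.42 cycles earlier and 0.12 above the median, at rank 50. The count of members at least 2-fold higher was 1 of 2, beside 37.9% of the 103 assays. miR-30a passed the limit with p21 and not with control, but its bound after centring was under 1 and gives no fold. The p21 shift of miR-30c depended on the centre: it was 2.17 with UniSp6 and 4.68 with UniSp3, but -0.034 on U6 and the SNORDs and -1.32 on all reference assays. These values place miR-30c relative to the wells used as centre. A centre takes the same value from every assay of a panel, so the rank of miR-30c on panel 1 (31 of 87) did not change with it. The shift depended on the limit as well, and with a limit of Cq 32 it was 0.040.

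**Figure D2:**
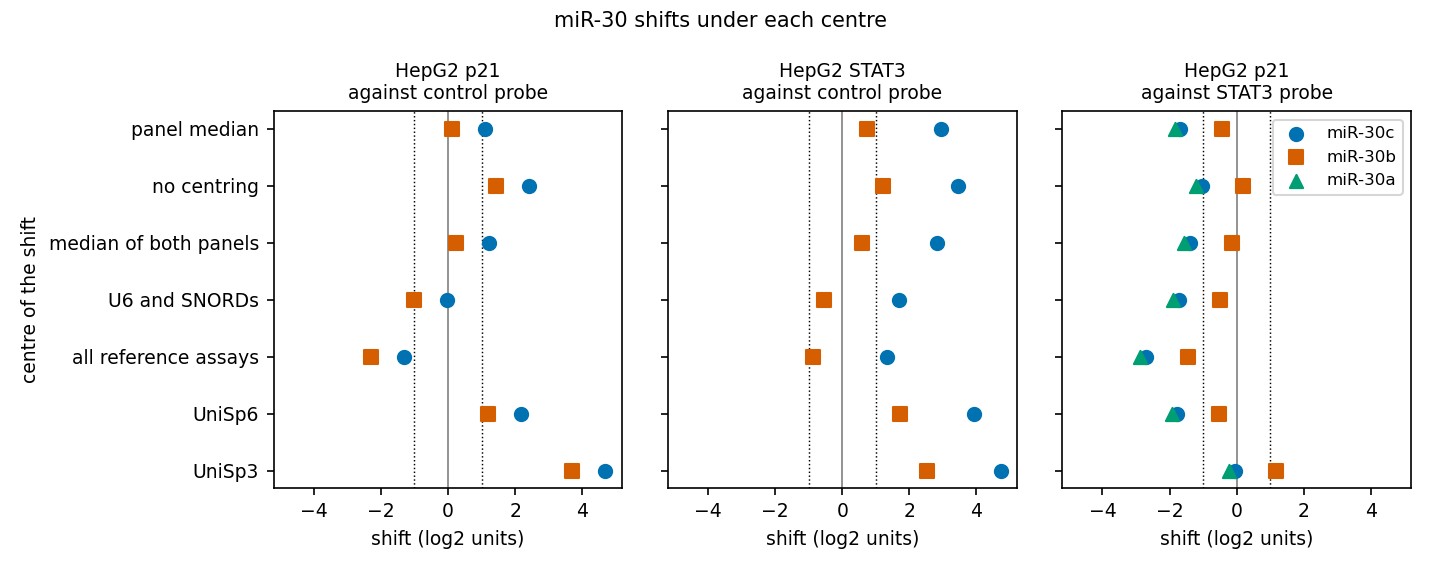
Shift (log2 units, horizontal axis) of the miR-30 members measured in both purifications, under 7 choices of centre (vertical axis), with dotted lines at the 2-fold size. With STAT3 against control miR-30c stays above 1 for each centre; with p21 against control it runs from -1.32 to 4.68.

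Set directly against each other, the p21 purification held less miR-30a and miR-30c than the STAT3 purification, without use of the control. miR-30a was at -1.21 cycles (later with p21) and at -1.85 log2 units from the panel median (3.61-fold lower), at rank 147 of 155 assays from the highest. miR-30c was at -1.04 cycles and at -1.68 from the median (3.21-fold lower), at rank 145. miR-30b was 0.20 cycles earlier with p21 and at -0.44 from the median, within the SD of repeated wells, whose widest pairs were those of miR-103. Thus 2 of the 3 measured members were at least 2-fold lower with p21, beside 31 of the 155 assays (20%). The direction for miR-30a and miR-30c was the same under each of the centres, but on UniSp3 their shifts shrank to -0.23 and -0.064, under 2-fold, and miR-30b turned to 1.18. The 3 UniSp3 wells of the p21 plate read 24.91, 21.60 and 22.46, and the pooled SD of such wells within a plate was 1.005 cycles. Without the latest UniSp3 well of each panel, an alternative chosen after the data were seen, the shifts were -0.98 for miR-30a, -0.81 for miR-30c and 0.43 for miR-30b.

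The gaps between members of a purification need no centre, since all 5 assays are on 1 panel. The Cq of miR-30b minus that of miR-30c was 1.20 cycles with the control probe, 2.18 with p21 and 3.43 with STAT3. The change from control was 2.23 cycles with STAT3 and 0.98 with p21. Repeated wells gave an SD of 1.02 cycles for such a change, and the STAT3 change was above it and the p21 change just below. Those repeated wells lay on different panels, so the SD holds offsets between panels, which cancel in a gap within 1 panel. It is therefore not the error of these gaps and cannot decide whether the p21 change exceeds error. The step from p21 to STAT3 was 1.24 cycles. In the STAT3 purification miR-30c thus stood further ahead of miR-30b than in the control purification.

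miR-30a and miR-30c kept their distance. The gap was 5.52 cycles with control, 5.23 with p21 and 5.07 with STAT3, a range of 0.45 cycles, although the miR-30a well of the control purification was past the detection limit. miR-30e, 1 base from miR-30a, did not follow it: its Cq minus that of miR-30a was 1.29 with control, 4.31 with p21 and 3.50 with STAT3. For miR-30d minus miR-30a the values were 1.15, 2.66 and 3.05. These gaps rest on late wells, whose error is unknown.

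**Figure D3:**
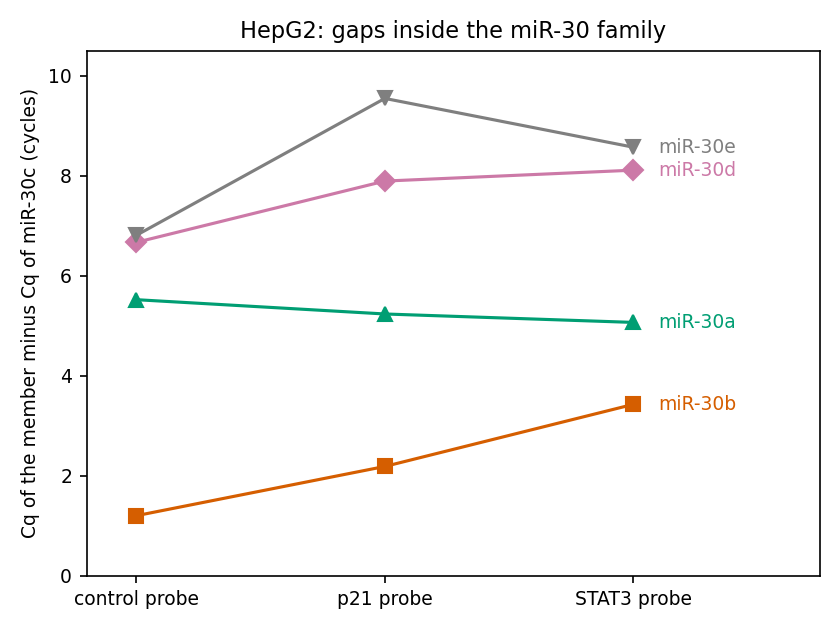
Cq of miR-30b, miR-30a, miR-30d and miR-30e minus the Cq of miR-30c (vertical axis, cycles) in the 3 HepG2 purifications (1 value per point; lines only join the points of a member). The miR-30a line stays between 5.07 and 5.52 cycles, and the miR-30b line goes from 1.20 to 3.43.

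With every Cq counted, late ones included, all 5 members could be compared in HepG2; this setting was chosen after the data were seen. Before centring, 5 of 5 members came earlier with STAT3 than with control (69.1% of 275 assays did) and 4 of 5 with p21 (67.1% of 246). After centring, the STAT3 shifts were 3.45 for miR-30a, 3.0 for miR-30c, 1.55 for miR-30d, 1.24 for miR-30e and 0.77 for miR-30b, so that 4 of 5 were at least 2-fold higher, beside 34.5% of assays. With p21 they were 2.01 for miR-30a, 1.73 for miR-30c, 0.74 for miR-30b, 0.50 for miR-30d and -1.01 for miR-30e, with 2 of 5 at least 2-fold higher, beside 37.4%. In p21 against STAT3, miR-30e (-2.08), miR-30a (-1.28) and miR-30c (-1.11) were at least 2-fold lower, 3 of 5 members beside 30.2% of 401 assays. miR-30d was at -0.89 and miR-30b at 0.14.

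The passenger strands of the same hairpins, which are usually degraded after the guide is loaded, stood mostly past the detection limit. Sequences are shown for the pair detected at a Cq of at most 35, with bases 2 to 8 in capitals; RefSeq lists them as miR-30a-3p and miR-30c-2-3p.
hsa-miR-30a*: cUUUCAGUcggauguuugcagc
hsa-miR-30c-2*: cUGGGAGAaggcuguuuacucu
The miR-30a* assay, on panel 2, gave no Cq with control, 33.97 with p21 and 33.33 with STAT3. Centred on the panel median, its lower bound with STAT3 against control was 1.45-fold, while its bound with p21 was under 1. Before centring the STAT3 bound was 1.67 cycles. That is less than the panel 2 offsets of U6 and the SNORDs (2.31) and of all reference assays (1.93), so on those centres it gives no fold. The UniSp6 (0.82) and UniSp3 (-0.10) offsets would leave a larger bound. The miR-30c-2* assay, on panel 1, read 36.42 with control, 37.63 with p21 and 33.52 with STAT3. Its lower bound with STAT3 was 1.99-fold on the panel median. Before centring that bound was 1.48 cycles, less than the panel 1 offsets of U6 and the SNORDs (1.75) and of all reference assays (2.11). On those centres it gives no fold either, and on UniSp6 (-0.49) and UniSp3 (-1.30) it would be larger. With every Cq counted the miR-30c-2* shift for p21 against STAT3 was -4.17. The 3′ arm of the other miR-30c hairpin, miR-30c-1*, gave no Cq with control, 35.60 with p21 and 35.56 with STAT3.

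The remaining passenger strands did not pass the limit. miR-30b* read 35.25 with control, nothing with p21 and 35.90 with STAT3. miR-30d* read 38.65 with p21 and 36.05 with STAT3, and miR-30e* 37.57 and 36.11, with no Cq with control for either. Detected at a Cq of at most 35 in HepG2 were 0 of 6 passenger strands with control, 1 with p21 and 2 with STAT3. The share of all 745 assays rose in the same order, with 16.8%, 28.3% and 34.4% detected. In PC-3 none of the 6 gave any Cq with either probe. Of all 745 assays there, 119 gave one with control and 207 with p21. Whether the passenger strands differ from all assays was not tested.

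Other seed families differed in where their members stood. In the STAT3 comparison the 2 measured miR-30 members had a median of 1.84 and lay 2.23 log2 units apart, between miR-30c and miR-30b. let-7 with miR-98 had a median of -0.26 over 7 measured members, from let-7f (-0.98) to let-7d (1.47). The miR-15/16 family had a median of 0.62 over 3, from miR-16 (-0.38) to miR-15b (2.83), and the miR-17 family 1.02 over 3, from 0.70 (miR-106a) to 1.17 (miR-93). The median over all assays is 0 by construction.

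In the p21 comparison the order of the medians was another, over partly different members. Measured with p21 but not with STAT3 were let-7a, miR-424 and miR-17, whereas let-7f was measured with STAT3 only. The miR-30 median was 0.61, with 0.98 log2 units between miR-30c and miR-30b, against 2.77 over 7 let-7 members (-1.03 for let-7i to 3.97 for let-7b), 0.50 over 4 miR-15/16 members and 1.47 over 4 miR-17 members. For p21 against STAT3 the 3 miR-30 members had a median of -1.68, and 0 of 3 were at least 2-fold higher with p21, beside 29.0% of the 155 assays. Of the let-7 members 5 of 6 were, with a median of 2.55. The miR-15/16 median there was -0.29 and the miR-17 median 0.79, over 3 members each. Members of a family are not replicates, and these differences between families were not tested.

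**Figure D4:**
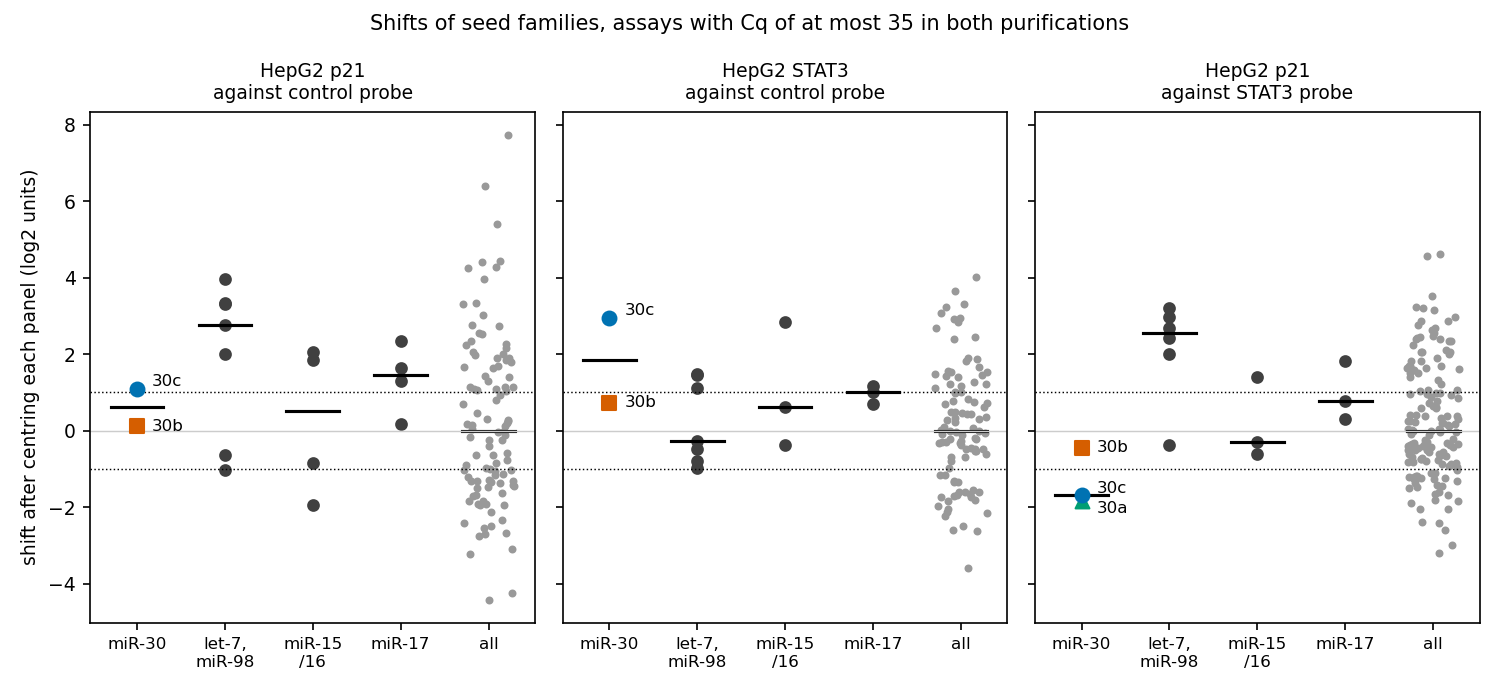
Centred shift (log2 units, vertical axis) of the members of 4 seed families and of all assays detected in both purifications, for the 3 HepG2 comparisons; each point is 1 assay, bars are medians and dotted lines mark the 2-fold size. In the p21 against STAT3 panel the 3 miR-30 points lie between -0.44 and -1.85, and 5 of the 6 let-7 points lie above 1.

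The assays with the nearest patterns were searched for miR-30b and miR-30c only. Likeness was the root mean square difference between panel-centred profiles over the 3 HepG2 purifications, each less its own mean, among the 89 assays detected in all 3, which leaves out miR-30a, miR-30d and miR-30e. miR-423-3p was nearest to miR-30c (0.12 log2 units, Cq 32.86, 30.17 and 29.30 with control, p21 and STAT3), then miR-25 (0.46) and miR-15b (0.48). Nearest to miR-30b were miR-27b (0.14, Cq 32.01, 30.51 and 31.04), miR-222 (0.21) and miR-23b (0.21). These profiles rest on 3 points from single wells.

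The deposited folds treat the late members differently from their Cq values. The authors' deposited table lists miR-30c at 15.3-fold and miR-30b at 3.26-fold for STAT3 against control, and at 4.49-fold and 2.27-fold for p21. These were matched from Cq when UniSp6 of panel 1 served as normaliser. For miR-30a the authors' deposited table gives 6.64 (STAT3) and 1.73 (p21), which correspond to a control Cq set to 35; with the measured control Cq of 36.66 the same calculation gives 20.9 and 5.47. All 5 members stand at 0.71 for PC-3 in the authors' deposited table, which is the UniSp6 factor alone, with both wells at the limit.

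With p21 in HepG2, miR-30d and miR-30e stand at 0.849 in the authors' deposited table, again the UniSp6 factor. With STAT3 miR-30e stands at 1.40 there, but miR-30d at 0.804, although both wells were past 35. Rebuilt with the limit on both wells, 8 of 11 miR-30 entries for STAT3 in the authors' deposited table came out within 0.01 log2 units, and 11 of 11 for each p21 comparison. The 3 that did not were miR-30d, miR-30d* and miR-30e*, and they matched when only the control well was set to 35 (0.804, 0.273 and 0.651). The deposited values below 1 for these 3 assays stood beside target wells that did give a Cq (35.80, 36.05 and 36.11) and control wells that were later or gave none.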

How the data were processed

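The authors deposited unnormalised Cq values from SYBR Green panels, 1 well per assay, with undetermined wells marked, and a table of fold ratios computed, per the file headers, by the ΔΔCt method against an unnamed housekeeping gene. No value of that table is negative, so the folds were read as linear despite column titles naming a log. Per the labels' protocols, probe-bound RNA was isolated with streptavidin beads and TRIzol; the sources used here give no instrument, threshold or probe sequence. Groups and columns came from the labels. Detection was a Cq of at most 35, 1 cycle was taken as 1 log2 unit, each panel was centred on its median, and 1 log2 unit (2-fold) counted as higher or lower. With 1 purification per condition there was no test; SDs come from repeated wells and cover no purification error. The calculation was tested on simulated data with large known shifts, earlier Cq values than most member wells and noise below the SD of repeated wells. That test does not cover late wells or shifts near 2-fold. Named were all members, their passenger strands, the 3 nearest profiles per member detected in all 3 HepG2 purifications, and the extremes of the compared families. Members and lists were chosen with earlier results of these data known. Alternatives were 6 other centres, Cq limits of 32, 34 and 37, undetected wells at 35, the deposited folds and, added later, every Cq and UniSp3 without its latest well. Python 3.11.15, pandas 2.3.3 and numpy 2.4.6 were used.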

Additional observations from a re-analysis of the deposited data

How the results depend on the processing

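For p21 against control the miR-30 median of 0.61 became 1.91 without centring, -0.53 on U6 and the SNORDs, -1.81 on all reference assays, 1.67 on UniSp6, 4.19 on UniSp3, 3.40 on UniSp3 without its latest well and 1.45 at Cq 37; miR-30c itself turned to -0.034 on U6 and the SNORDs and -1.32 on all reference assays. The count of members at least 2-fold higher, 1, became 2 without centring, on UniSp6, on UniSp3 with and without that well, at Cq 37, with every Cq and in the authors' deposited folds, and 0 on U6 and the SNORDs, on all reference assays and at Cq 32; the range within the family became 3.02 with every Cq. For STAT3 the median of 1.84 became 0.58, 0.23, 2.82, 3.63 and 3.59 on U6 and the SNORDs, all reference assays, UniSp6, UniSp3 and UniSp3 without that well, 3.02 at Cq 37 and 2.73 in the deposited folds. The count of 1 became 2 without centring, on UniSp6, on UniSp3 with and without that well, at Cq 37 and with undetected wells at 35, 3 in the deposited folds and 4 with every Cq. For p21 against STAT3 the median of -1.68 became -2.70 on all reference assays, -0.064 on UniSp3 and -0.81 without that well, the count of 2 lower members became 0 on UniSp3 with and without that well and 1 at Cq 32, and the range became 2.22 with every Cq. Members detected with the control probe in HepG2 went from 2 to 1 at Cq 32 and 5 with every Cq, with p21 from 3 to 5 with every Cq, with STAT3 from 3 to 5 at Cq 37 and with every Cq, and in PC-3 from 0 to 1 (control, every Cq), 1 (p21, Cq 37) and 2 (p21, every Cq). For the changes with the centre and with the limit, the cause was not tested. Of the other 54 results for medians, counts and ranges, each moved by less than the SD of repeated wells (0.72) or stayed within 1.5 times. That SD is larger than the p21 median of 0.61, so it is a loose limit there. Within it the p21 median was 0.040 at Cq 32, with miR-30c alone measured. It was 0.12 with undetected wells at 35 and 1.18 in the deposited folds. In PC-3 no member gave a Cq with both probes, so no measured shift was available there; the deposited folds and wells set to 35 give values that hold no difference between wells of a member. Precision is limited by single wells, single purifications and late Cq values.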
